A study of Canis lupus familiaris with 6 samples.

Results

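The proteasome is the protease complex that destroys ubiquitin-tagged proteins in the cytosol and nucleus. Its barrel-shaped core is built of outer alpha rings, which gate entry, and inner beta rings, which hold the cutting sites. A regulatory cap sits on the core, with a base of ATPases that unfold substrates and a lid that removes ubiquitin. Activators can take the place of the cap, interferon can exchange the catalytic subunits for those of the immunoproteasome, and dedicated chaperones assemble the parts. Cells whose proteasome is impaired raise the subunit genes together through the transcription factor NFE2L1. The proteasome genes were chosen by symbol, as every row that starts with PSMA, PSMB, PSMC, PSMD, PSME, PSMF or PSMG and a digit, plus POMP and ADRM1. This gave 49 of 20500 rows. Of these, 47 are subunits, regulators or assembly factors. The other 2, PSMC3IP and PSME3IP1, match the rule by symbol without being proteasome parts and are given apart. PSMA1, PSMB8 and PSMG1 are not analysed here, since no row carries these symbols.

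The cells were HU-HSA-2, a canine hemangiosarcoma line, that is, one from a malignant tumour of blood vessel cells. Cultures received DMSO or the lactate dehydrogenase inhibitor (R)-GNE-140 for 72 hours, in medium with serum. There were 3 control libraries and 3 libraries labelled GNE140, all of polyA RNA from the same line. The sources used here state no dose. The deposited unit is TPM, a transcript abundance that corrects for transcript length and has a fixed total per library. Levels of different genes can therefore be set side by side, but read depth is unknown.

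Between 13379 and 13861 rows were above 0 in a library. Of 12 endothelial markers, 11 reached a mean of 1 TPM, and VWF, which encodes von Willebrand factor, did not. CD3E, CD3D, CD4 and MS4A1, which mark lymphocytes, were listed at 0 in all 6 libraries, and the leukocyte marker PTPRC stayed under 1 TPM. The summed TPM of the 11 leukocyte markers was 7.39 to 7.86 in controls and 8.05 to 9.80 after treatment. The 9 fibroblast and mural markers summed to 5.60 to 7.02 and 7.80 to 10.7 TPM, the 3 epithelial markers with a row to at most 0.26 TPM, and the endothelial list to 1558 to 1791 and 1398 to 1493 TPM. No marker passed the test described next, which only markers with a mean of at least 1 TPM entered. These were 11 endothelial, 2 leukocyte, 3 fibroblast and mural and 0 epithelial markers. In bulk libraries such as these, fewer cells of a type and less RNA per cell cannot be told apart.

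No proteasome gene passed the test after (R)-GNE-140. Differences were taken on log2(TPM + 1), GNE140 minus control, and tested with limma over all 10874 rows with a mean of at least 1 TPM, with Benjamini-Hochberg adjustment at 0.05. Of the 49 rows 47 were tested, that is 45 proteasome genes with PSMC3IP and PSME3IP1, while PSMA8 and PSMB11 were under the limit. Of the 47, 0 rose or fell by limma, with 2 higher and 8 lower at an unadjusted p under 0.05. Over all tested rows 3.03% were called (1.31% higher and 1.72% lower), a share that would give 1.42 calls among 47, so a count of 0 lies near that background. The smallest adjusted p among the 47 was 0.0934, for PSMD6. The unadjusted shares were 4.26% higher and 17.0% lower for these rows, against 8.75% and 9.16% over all rows. The labels do not say that replicates came from separate cultures, so these p-values measure only the spread between libraries, which may be technical.

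The differences were small, and most were estimated closely. Their median was -0.021 (range -0.22 to 0.33), beside 0.0040 over all tested rows. An absolute difference under 0.1 was found for 34 of the 47 rows (72.3%, against 55.6% of all rows). These rows were also more abundant, with a median level of 198 TPM against 21.6 TPM over all tested rows, and their median coefficient of variation was 4.64% among controls and 3.72% among treated libraries, against 6.11% and 6.76%. The 95% interval lay wholly between -0.3 and 0.3 for 43 of 47 rows and between -0.5 and 0.5 for 46. PSMG3, an assembly chaperone, was the exception.

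**Figure D1:**
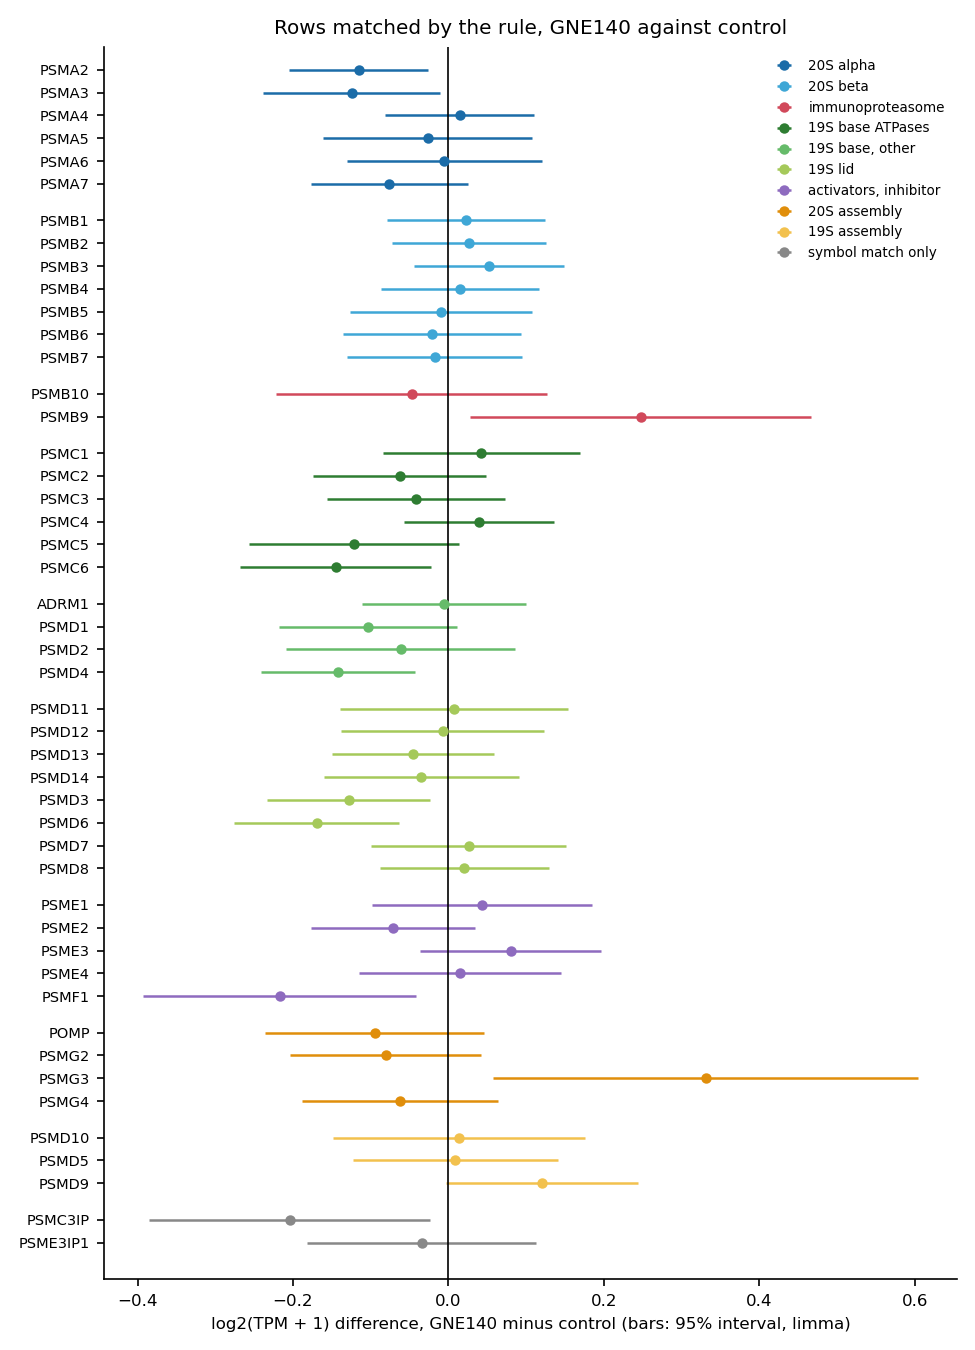
Difference in log2(TPM + 1), GNE140 minus control, of the 47 tested rows (points) with limma's 95% interval (bars), coloured by role. The points lie between -0.22 and 0.33, and 37 of the 47 intervals include 0.

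**Figure D2:**
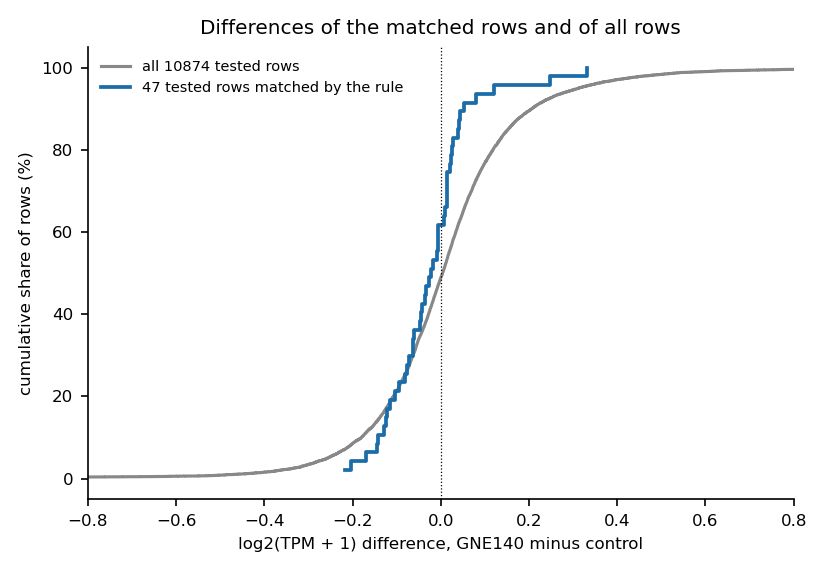
Cumulative share of rows (vertical axis, in percent) by log2(TPM + 1) difference, GNE140 minus control, for the 47 tested rows matched by symbol and for all 10874 tested rows. The curve of the 47 is steeper around 0 and ends at -0.22 and at 0.33, with 1 row above 0.3. A set of 47 rows has fewer extremes than 10874 rows, and these rows were also more abundant. The lengths of the tails are therefore not compared.

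The direction of the median depended on 1 control library and on the scaling. Control replicate 3 held the highest of the 3 control values in 29 of the 47 rows (61.7%, against 41.1% of all rows). Without it the median was 0.0050, beside 0.0065 over all tested rows in that fit. Under quantile normalization it was 0.012, beside 0.0012 over all tested rows. The groups did not overlap in 10 of the 47 rows, against 23.1% of all tested rows. In 9 rows all 3 treated values lay below all 3 controls (19.1%, against 11.8% of all rows), and in 1 row they lay above (2.13%, against 11.2%). The 9 were PSMA2, PSMA3, PSMC6, PSMD1, PSMD3, PSMD4, PSMD6, POMP and PSMC3IP, and the 1 was PSMD9.

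Subunits that each particle needs in equal number differed in transcript level. Among the 6 measured alpha-ring genes the mean over 6 libraries ran from 171 TPM for PSMA4 to 647 TPM for PSMA3, a ratio of 3.78. PSMA3 lay above the others and PSMA4 below them in every library, while PSMA6, PSMA2, PSMA7 and PSMA5 overlapped their neighbours in the order. The 7 constitutive beta genes spanned a ratio of 2.30, from 292 TPM for PSMB5 to 673 TPM for PSMB3, and only PSMB5 stood clear of the rest. The 6 ATPases of the base were the closest to each other among the groups with more than 4 genes, from 176 TPM (PSMC4) to 288 TPM (PSMC5), a ratio of 1.64. The 8 lid genes that match the rule, which leaves out the lid subunit SEM1, ran from 42.7 TPM for PSMD7 to 289 TPM for PSMD6, a ratio of 6.76. Reads shared with near-identical copies can shift such levels, so the order of genes is less certain than the comparison of libraries.

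**Figure D3:**
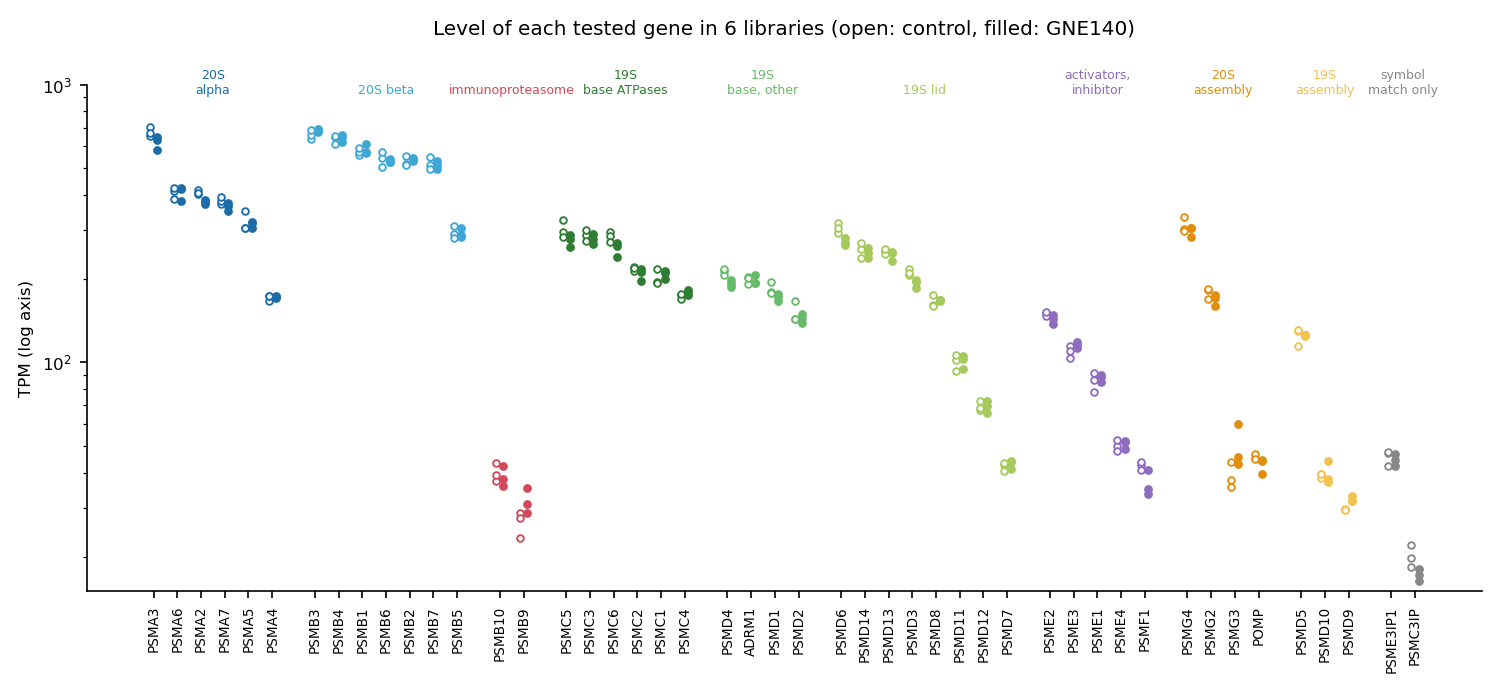
TPM of each tested row (log axis) in the 3 control libraries (open) and the 3 GNE140 libraries (filled), ordered by level within each role. Constitutive core genes lie between 166 and 701 TPM, the immunoproteasome genes PSMB9 and PSMB10 between 23.3 and 43.3 TPM, and the 2 groups of a gene lie close together beside these differences between genes.

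In the alpha ring, 0 of 6 tested genes passed, and the median difference was -0.051. PSMA3 was at 654, 701 and 671 TPM in control libraries and at 582, 645 and 632 TPM after treatment. Its treated libraries all lay below its controls, with a log2 difference of -0.12 (SE 0.051, 95% interval -0.24 to -0.011, limma adjusted p = 0.234). PSMA2 was at 405, 418 and 406 TPM in control libraries and at 372, 385 and 378 TPM after treatment. These groups did not overlap either, and the difference was -0.12 (SE 0.040, 95% interval -0.20 to -0.026, limma adjusted p = 0.161). PSMA7 was at 372, 382 and 395 TPM in control libraries and at 375, 350.2 and 365 TPM after treatment. The lowest control lay within the treated range, and the difference was -0.076 (95% interval -0.18 to 0.025). PSMA4, PSMA5 and PSMA6 had differences of 0.014, -0.027 and -0.0053, and their groups overlapped. PSMA8, the germ-cell form of an alpha subunit in mouse, was listed at 0 in all 6 libraries.

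The constitutive beta ring had the narrowest range of differences of all the roles, with 0 of 7 genes passing and every difference between -0.021 and 0.052. Of its subunits 3 are catalytic. PSMB5, which cuts after hydrophobic residues, was at 290.1, 279.8 and 309.8 TPM in control libraries and at 304, 283 and 287 TPM after treatment. PSMB6, which cuts after acidic residues, was at 504, 543 and 571 TPM in control libraries and at 539, 526 and 525 TPM after treatment. PSMB7, which cuts after basic residues, was at 511, 497 and 550.4 TPM in control libraries and at 514, 529.6 and 495 TPM after treatment. In each of the 3 genes the groups overlapped, and the treated libraries lay inside the range of the controls, apart from 1 treated PSMB7 library that lay just below it. The log2 differences were -0.0096 (95% interval -0.13 to 0.11) for PSMB5, -0.021 (95% interval -0.14 to 0.093) for PSMB6 and -0.018 (95% interval -0.13 to 0.095) for PSMB7. All 3 signs turned without control replicate 3.

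Among the non-catalytic beta subunits, PSMB3 had the highest mean level of all members. It was at 634, 661 and 688 TPM in control libraries and at 687, 691 and 677 TPM after treatment. The controls reached both below and into the treated range, and the difference was 0.052 (SE 0.043, 95% interval -0.044 to 0.15, limma adjusted p = 0.591). PSMB1, PSMB2 and PSMB4 had differences of 0.022, 0.027 and 0.015. No beta gene had groups that lay apart.

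The immunoproteasome genes were expressed at a low level, and neither of the 2 tested passed. PSMB9, which takes the place of PSMB6, was at 23.3, 28.7 and 27.6 TPM in control libraries and at 30.9, 35.4 and 28.7 TPM after treatment. The lowest treated value stood just under the highest control, so the groups overlapped, and the difference was 0.25 (SE 0.10, 95% interval 0.028 to 0.47, limma adjusted p = 0.219). Leaving out single libraries gave differences from 0.16 to 0.31. PSMB10, which takes the place of PSMB7, was at 37.5, 43.3 and 39.4 TPM in control libraries and at 38.0, 42.4 and 36.0 TPM after treatment. These values were intermixed, with a difference of -0.047 (SE 0.078, 95% interval -0.22 to 0.13, limma adjusted p = 0.817), and the sign turned without control replicate 2 or GNE140 replicate 3. PSMB11, the thymus form, was at 0.18 TPM in 1 control and listed at 0 in the other libraries.

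Set against the subunits they replace, both were a small part of the pair. PSMB9 made up 4.43%, 5.03% and 4.61% of the summed TPM of PSMB9 and PSMB6 in controls and 5.42%, 6.31% and 5.18% after treatment. Every treated library lay above every control in this share, which is a description with no test. PSMB10 made up 6.84%, 8.01% and 6.69% of its pair with PSMB7 in controls and 6.88%, 7.41% and 6.77% after treatment, and these groups overlapped. The summed leukocyte markers given above also lay higher in the treated libraries, but most of that sum came from CD14, a monocyte marker. CD14 was at 4.81, 4.50 and 4.18 TPM in control libraries and at 5.72, 5.65 and 6.40 TPM after treatment. In no other gene of that list did the groups lie apart. The CD14 groups were apart, with a difference of 0.33 (limma adjusted p = 0.119), while CD68, a macrophage marker, overlapped between groups with a difference of -0.16. PTPRC was under 1 TPM and CD3E, CD3D, CD4 and MS4A1 were at 0, and the part of other cells in the PSMB9 values was not tested.

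**Figure D4:**
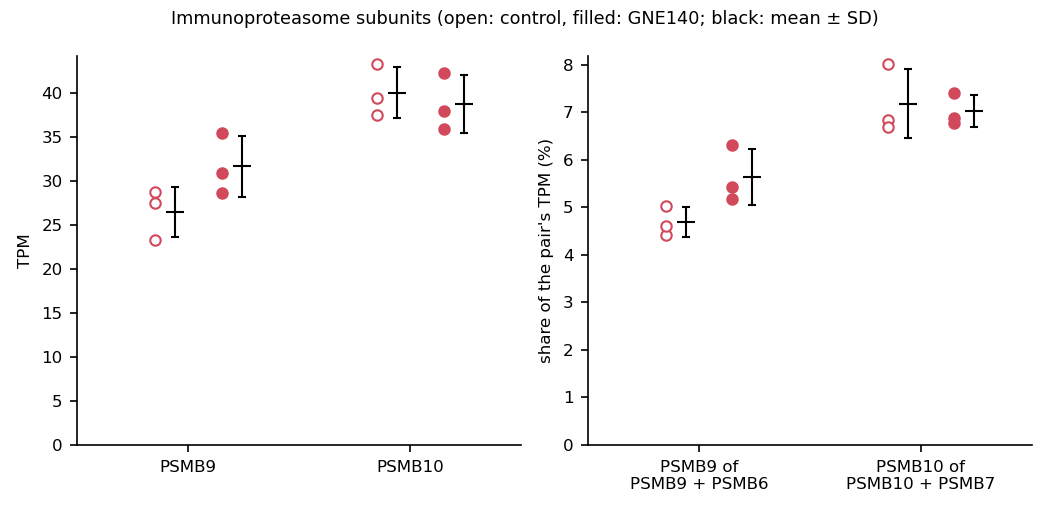
TPM of PSMB9 and PSMB10 (left) and their share of the TPM of the pair with the constitutive subunit each replaces (right, in percent), by library, with mean and SD in black. PSMB9 shares are 4.43% to 5.03% in controls (open) and 5.18% to 6.31% after treatment (filled), and PSMB10 shares overlap.

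The base of the cap holds a ring of ATPases that open the gate and pull the substrate in. Of these 6 genes 0 passed, with a median difference of -0.052. PSMC6 was at 294, 286 and 272 TPM in control libraries and at 239.9, 262 and 268 TPM after treatment. Its treated values all lay below its controls, with a difference of -0.15 (SE 0.055, 95% interval -0.27 to -0.022, limma adjusted p = 0.198). PSMC5 was at 293, 283 and 324 TPM in control libraries and at 287, 279 and 261 TPM after treatment. The groups overlapped through a single treated library, and the difference was -0.12 (SE 0.060, 95% interval -0.26 to 0.014, limma adjusted p = 0.334), which was -0.065 without control replicate 3. PSMC2 and PSMC3 had differences of -0.063 and -0.042, and PSMC1 and PSMC4 had 0.042 and 0.040. All 4 of these overlapped between groups.

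The other base subunits are the scaffolds PSMD1 and PSMD2 and the ubiquitin receptors PSMD4 and ADRM1. None of the 4 passed by limma, and the median difference was -0.082. At an unadjusted p under 0.05 by limma, 1 of the 4 was lower, against 9.16% of all tested rows. PSMD4 was at 214, 207 and 216 TPM in control libraries and at 187, 197 and 192 TPM after treatment. All treated libraries lay below all controls, with a difference of -0.14 (SE 0.044, 95% interval -0.24 to -0.043, limma adjusted p = 0.123). ADRM1, the other receptor, was at 202, 192 and 202 TPM in control libraries and at 194, 194 and 206 TPM after treatment. Its groups were intermixed, and the difference was -0.0061 (95% interval -0.11 to 0.10). PSMD1 was at 179.8, 178 and 195 TPM in control libraries and at 172, 166 and 176 TPM after treatment. Its treated values lay below its controls, with a difference of -0.10 (95% interval -0.22 to 0.011). PSMD2, with a difference of -0.062 (95% interval -0.21 to 0.086), had a single high control, at 166 TPM.

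The lid carries PSMD14, the enzyme that removes ubiquitin chains, with its partner PSMD7 and structural subunits around them. Of 8 lid genes 0 passed, and the median difference was -0.021. PSMD6 was at 318, 293 and 305 TPM in control libraries and at 269, 280.4 and 265 TPM after treatment. Every treated library was below every control, and the difference was -0.17 (SE 0.047, 95% interval -0.28 to -0.064, limma adjusted p = 0.0934), which ran from -0.20 to -0.14 with 1 library left out. PSMD3 was at 217, 206 and 209.6 TPM in control libraries and at 195, 185 and 199 TPM after treatment. This gene also separated the groups, with a difference of -0.13 (SE 0.047, 95% interval -0.23 to -0.023, limma adjusted p = 0.183). PSMD14 was at 237, 256 and 268 TPM in control libraries and at 238, 248 and 257 TPM after treatment. Its values were intermixed, with a difference of -0.035 (95% interval -0.16 to 0.090). PSMD7 was at 42.9, 40.8 and 43.3 TPM in control libraries and at 43.8, 44.0 and 41.5 TPM after treatment, a range of a few TPM in both groups. PSMD7, PSMD8, PSMD11, PSMD12 and PSMD13 had differences between -0.045 (PSMD13) and 0.026 (PSMD7), and none of them had groups that lay apart.

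Summed over the 18 genes that match the rule, the cap was at 3599, 3506 and 3719 TPM in controls and at 3457, 3436 and 3446 TPM after treatment. The treated libraries all lay below the controls, and the group means were 3608 ± 107 and 3446 ± 10.2 TPM (SD, n = 3 each), a difference of -4.48%. The sum carries no test. The cap stayed lower without overlap in each of the 3 other scalings, but the gap could be narrow. The lowest control and the highest treated sum were 3561 and 3555 TPM under median-of-ratios scaling, and 3544 and 3541 TPM under quantile normalization. The difference moved to -1.99% under quantile normalization and to -2.99% without control replicate 3. With SEM1 added, a choice made after the data were seen, the sums were 4794, 4753 and 4748 TPM in controls and 4474, 4452 and 4604 TPM after treatment, again without overlap, a difference of -5.35%. The 7 alpha rows lack PSMA1 and include PSMA8, which was at 0 in every library. They summed to 2292, 2393 and 2421 TPM in controls and to 2199, 2278 and 2291 TPM after treatment. The groups were apart by under 1 TPM, and they overlapped in each of the other scalings. The 7 constitutive beta rows summed to 3665, 3674 and 3916 TPM and to 3776, 3832 and 3744 TPM. Control replicate 3 lay above the treated sums, and without it they were 3.11% higher than the controls and apart from them. Together the 47 proteasome rows made up 1.07% to 1.14% of a library's TPM.

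**Figure D5:**
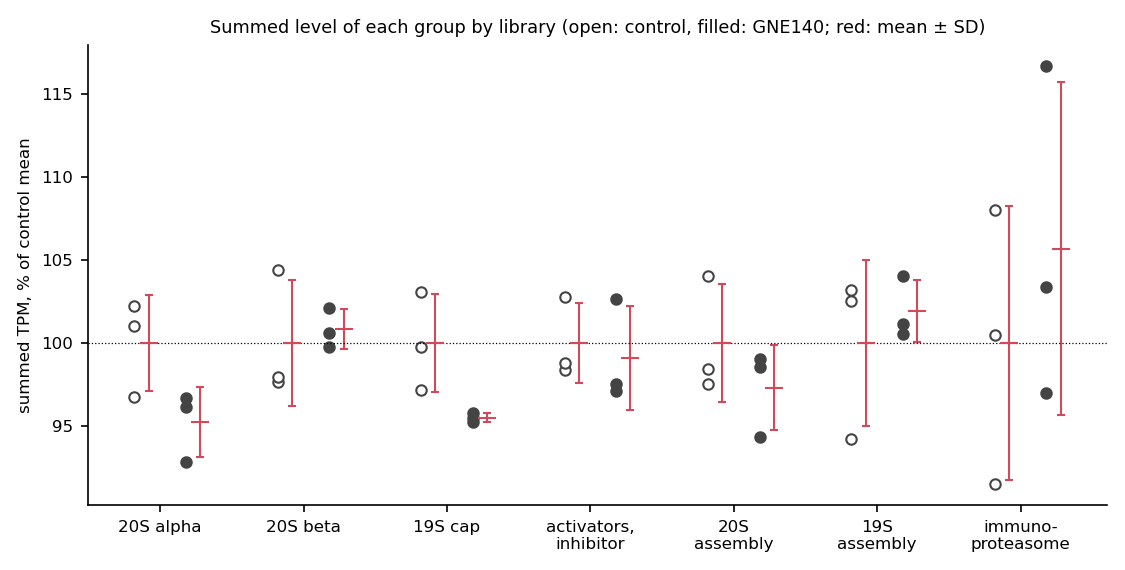
Summed TPM of each role by library, as a percentage of the control mean (open: control, filled: GNE140, red: mean and SD). The 3 treated libraries lie below all controls for the alpha ring and the cap, and the groups overlap for the other roles. The sums do not hold PSMA1, PSMB8, PSMG1 or SEM1. The vertical axis does not start at 0.

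Activators bind the core in place of the cap, and 0 of the 5 genes of activators and inhibitor passed. PSME1 and PSME2 encode the subunits of the interferon-inducible activator. PSME1 was at 91.4, 86.3 and 78.4 TPM in control libraries and at 90.0, 88.8 and 84.9 TPM after treatment. PSME2 was at 151, 146 and 152 TPM in control libraries and at 148, 143 and 137 TPM after treatment. Both genes overlapped between groups, with differences of 0.044 (95% interval -0.10 to 0.18) for PSME1 and -0.071 (95% interval -0.18 to 0.035) for PSME2. PSME3, the nuclear activator, had a difference of 0.080 (95% interval -0.036 to 0.20), and PSME4, the large single-chain activator, 0.015 (95% interval -0.12 to 0.14). PSMF1, which inhibits the core in vitro, was at 42.9, 40.9 and 43.8 TPM in control libraries and at 41.0, 33.5 and 35.1 TPM after treatment. A single treated library reached into the control range, and the difference was -0.22 (SE 0.078, 95% interval -0.39 to -0.042, limma adjusted p = 0.178). Without GNE140 replicate 1, the library that reached it, the difference of PSMF1 was at its lowest among the fits with 1 library left out, at -0.30. The limma adjusted p of PSMF1 was 0.0673 in that fit and up to 0.374 in the others.

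Assembly factors of the core were measured through 4 of 5 listed genes, and 0 passed. PSMG3, a chaperone of alpha-ring formation, was at 43.8, 37.6 and 35.6 TPM in control libraries and at 60.2, 45.8 and 43.1 TPM after treatment. The first treated library stood above all others, and the lowest treated value lay just under the highest control. The difference of PSMG3 was 0.33 (SE 0.12, 95% interval 0.057 to 0.60, limma adjusted p = 0.187), the largest among the members, and it was 0.19 without GNE140 replicate 1. In a fit with the replicate number as a block, the limma adjusted p of PSMG3 was 0.0550, just above the threshold. PSMG4, its partner, was at 302, 298 and 333 TPM in control libraries and at 282, 305 and 306 TPM after treatment. These groups overlapped, with a difference of -0.062 (95% interval -0.19 to 0.064). PSMG2, a chaperone of the other alpha-ring pair, had -0.080 (95% interval -0.20 to 0.042). POMP, which guides beta-ring formation and is itself degraded in the finished core, was at 45.2, 47.0 and 44.9 TPM in control libraries and at 39.5, 44.2 and 44.5 TPM after treatment. The treated values of POMP lay just below the controls, and the difference was -0.10 (SE 0.062, 95% interval -0.24 to 0.046, limma adjusted p = 0.49), which was -0.041 without GNE140 replicate 1. The identifier list in the table gives 2 identifiers for each of POMP, PSMA6 and PSMD5, while a single row carries each symbol, so these levels are uncertain.

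Of the 3 chaperones of the base, 0 passed, and the median difference was 0.014. PSMD9 was at 29.4, 29.8 and 29.4 TPM in control libraries and at 31.8, 33.0 and 31.8 TPM after treatment. It was the 1 member whose treated values all lay above the controls, with a difference of 0.12 (SE 0.055, 95% interval -0.0028 to 0.24, limma adjusted p = 0.29). PSMD5 was at 129.5, 114 and 131 TPM in control libraries and at 126, 124 and 126 TPM after treatment. The treated libraries lay inside the control range, and the difference was 0.0089 (95% interval -0.12 to 0.14), whose sign turned without control replicate 2. PSMD10, also known as gankyrin, had 0.014 (95% interval -0.15 to 0.18).

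The remaining 2 rows matched the symbol rule without being proteasome parts. PSMC3IP, a recombination cofactor, was at 18.4, 22.0 and 19.8 TPM in control libraries and at 18.1, 17.2 and 16.4 TPM after treatment. The groups did not overlap, and the difference was -0.20 (SE 0.080, 95% interval -0.38 to -0.023, limma adjusted p = 0.218). PSME3IP1, which binds PSME3, had -0.035 (95% interval -0.18 to 0.11). Without these rows the counts of calls were again 0, and the median difference was -0.018.

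Regulators of proteasome genes outside the set did not pass either, with 0 of 10 called, against 3.03% of all tested rows. Their median difference was 0.074, beside 0.0040 over all rows. NFE2L1, the factor that raises subunit genes when the proteasome is impaired, was at 49.6, 47.0 and 45.0 TPM in control libraries and at 52.9, 45.9 and 49.0 TPM after treatment. Its groups overlapped, with a difference of 0.059 (SE 0.067, 95% interval -0.092 to 0.21, limma adjusted p = 0.715). NFE2L2, the related factor of the oxidative stress response, was at 90.4, 82.9 and 91.4 TPM in control libraries and at 101, 96.9 and 95.3 TPM after treatment. Its treated values all lay above its controls, and the difference was 0.15 (SE 0.055, 95% interval 0.024 to 0.27, limma adjusted p = 0.193). DDI2 and NGLY1, the protease and the deglycosylating enzyme that activate NFE2L1, had differences of 0.024 and -0.12.

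Among 14 tested proteasome-associated genes 1 rose and 0 fell, against 1.31% and 1.72% of all tested rows. Their median was -0.011, beside 0.0040 over all rows, and they include PSME3IP1, which also matched the symbol rule. The gene that rose was ZFAND2A, an arsenite-inducible protein that binds the proteasome. ZFAND2A was at 33.1, 33.6 and 34.2 TPM in control libraries and at 43.8, 43.4 and 41.1 TPM after treatment. The groups lay well apart, and the difference was 0.34 (SE 0.055, 95% interval 0.21 to 0.46, limma adjusted p = 0.0164), a call that held without control replicate 2 or 3 and ended without control replicate 1 or any single GNE140 library. With 1 library left out the ZFAND2A difference stayed between 0.32 and 0.37, with an adjusted p of at most 0.0744 by limma. SEM1, a small lid subunit whose symbol the rule does not reach, was at 1195, 1247 and 1028 TPM in control libraries and at 1017, 1015 and 1158 TPM after treatment. These values were intermixed, with a difference of -0.12 (SE 0.077, 95% interval -0.29 to 0.055, limma adjusted p = 0.484), which was -0.20 without control replicate 3, -0.18 without GNE140 replicate 3 and -0.063 without control replicate 2. USP14 and UCHL5, the deubiquitinating enzymes docked on the cap, had differences of 0.010 and -0.0032.

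Ubiquitin genes, activating enzymes and shuttle receptors gave 1 rise and 0 falls among 14 tested, against 1.31% and 1.72% of all tested rows. Their median was 0.019, beside 0.0040 over all rows. The gene that rose was SQSTM1, the receptor that carries ubiquitinated cargo to autophagy. SQSTM1 was at 398, 367 and 392 TPM in control libraries and at 514, 439 and 464 TPM after treatment. The treated values lay above the controls, with a difference of 0.29 (SE 0.062, 95% interval 0.15 to 0.43, limma adjusted p = 0.0421), and no fit with 1 library left out (0 of 6) kept this call. UBB, a polyubiquitin gene, had a difference of 0.14, and VCP, the unfoldase upstream of the proteasome, -0.13 (95% interval -0.27 to 0.0059). Neither passed.

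The partners of the immunoproteasome in antigen presentation gave 0 rises and 1 fall among 7 tested, against 1.31% and 1.72% of all tested rows. Their median was -0.080, beside 0.0040 over all rows. The gene that fell was B2M, the light chain of MHC class I. B2M was at 94.0, 93.4 and 96.2 TPM in control libraries and at 78.2, 76.1 and 74.8 TPM after treatment. The groups did not overlap, and the difference was -0.30 (SE 0.047, 95% interval -0.41 to -0.20, limma adjusted p = 0.0137), a call that ended without control replicate 1 (adjusted p = 0.0578) or GNE140 replicate 3 (0.0624), while the difference stayed between -0.32 and -0.29 in all 6 fits with 1 library left out. CALR, a chaperone of MHC class I assembly, and ERAP1, which trims peptides, had differences of -0.22 (95% interval -0.33 to -0.10) and -0.25 (95% interval -0.42 to -0.077) and did not pass. IRF1, which switches on immunoproteasome genes after interferon, had -0.077 and did not pass. In 4 of the 7 tested genes (B2M, CALR, ERAP1 and IRF1) all treated values lay below all controls, against 11.8% of all tested rows. In 1 gene of the list, TAP1, they lay above, against 11.2%.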

How the data were processed

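PolyA RNA of 6 libraries was analysed from 1 deposited table. Its values are TPM with 2 decimals, brought by the authors to the same sum in every library. The submitters' processing notes name STAR, RSEM and edgeR 3.42.0, with roles and settings not given in the sources used here, nor is the genome build, so no coordinates are printed. TPM keeps no depth, so no count test or counting interval is given, and precision is judged from the spread of 3 libraries per group. Identifiers came from a list in the same table, and gene order from RefSeq (UU_Cfam_GSD_1.0), where 48 of 49 members matched by symbol. No sequences are shown, and single values of some pathway genes are not reported here.

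Rows with a mean of at least 1 TPM entered a limma fit (version 3.58.1, R 4.3.3) of log2(TPM + 1), which understates changes at low TPM, with group as the only term, a mean trend of the variance and 2-sided Benjamini-Hochberg adjusted p-values at 0.05. The steps were tested on simulated data. Members, gene lists and tests were chosen with earlier results of these data known. The values of 6 libraries are given for members with the largest difference or level of each role, the catalytic, immunoproteasome and interferon-inducible activator genes, POMP, NFE2L1, NFE2L2, SEM1 and every gene past the threshold. PSMA2, PSMA7, ADRM1, PSMD1, PSMD3, PSMD7, PSMD14, PSMC3IP, TAP1, CD14 and CD68 were added after their values were seen. Alternatives covered pseudocounts of 0.1 and 5, the filter (none, and a mean of 5 TPM), 3 scalings (median of ratios, quantile, 20 most abundant genes removed), no trend, a replicate block and leaving out each library. Figures were drawn with matplotlib 3.10.9.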

Additional observations from a re-analysis of the deposited data

How the results depend on the processing

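The count of proteasome genes called by limma was 0 under every alternative run, among them the replicate block, each left-out library and the fit without PSMC3IP and PSME3IP1, a choice made after the data were seen. Unadjusted counts ran from 1 to 3 higher and from 4 to 9 lower. The count over all genes, 329 (43.2% higher), was 168 with no filter and 159 without the trend (57.9% higher), and 74 to 185 with 1 library left out. It was 352 at a mean of 5 TPM, 440 with median-of-ratios scaling, 416 under quantile normalization, 375 with the 20 most abundant genes removed, and 344 and 325 with pseudocounts of 0.1 and 5. With the replicate block it was 163. Deviations of same-numbered libraries correlated at 0.036, 0.0093 and -0.098 across genes, and those of differently numbered libraries at -0.11 to 0.096. No shared effect of the replicate number was visible, but the labels do not say whether libraries were paired.

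The median difference of the members, -0.021, was 0.012 under quantile normalization and -0.048 to 0.0050 with 1 library left out. Less the median over all tested rows of the same fit, it was -0.025 in the main fit and 0.011 under quantile normalization. With 1 library left out it was then -0.052 to -0.0015. The PSMB9 share, 0.95 percentage points higher, was 0.61 to 1.18 points higher with 1 library left out. Calls among the other pathway genes, 3, were 5 under quantile normalization and 0 to 2 with 1 library left out. Signs turned for uncalled members with differences near 0. Under quantile normalization PSMB5 was at 0.022, PSMB6 at 0.014 and PSMB7 at 0.018, and with the 20 most abundant genes removed PSMB5 was at 0.0021. With 1 library left out PSMB5 ran from -0.043 to 0.031, PSMB6 from -0.069 to 0.021, PSMB7 from -0.049 to 0.024, PSMB10 from -0.11 to 0.0083, PSMD5 from -0.053 to 0.043 and PSME1 from -0.016 to 0.093. SQSTM1 also lost its call without the filter (limma adjusted p = 0.101) and without the trend (0.122), and its adjusted p ran from 0.0244 to 0.122 over all alternatives. Without the depth of the libraries, counting error cannot be set apart from other spread.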

Other observations

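Some members stand near each other, or near a partner gene, in the RefSeq gene order of the assembly UU_Cfam_GSD_1.0. PSMB9 and TAP1, the peptide transporter gene next to it with 0 protein-coding genes between them, had log2(TPM + 1) differences of 0.25 and 0.12. TAP1 was at 28.0, 26.3 and 25.6 TPM in control libraries and at 29.5, 28.4 and 29.4 TPM after treatment, so its treated values all lay above its controls, and neither gene passed (limma adjusted p = 0.219 and 0.337). PSME1 and PSME2, with 1 gene between them, had 0.044 and -0.071. PSMA7 and ADRM1, with 4 genes between them, had -0.076 and -0.0061, and PSMD4 and PSMB4, likewise with 4, had -0.14 and 0.015.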
